A study of Mus musculus with 33 samples.

Results

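Cxcl12, Cxcl14, Clu, Vcam1, Col3a1, Fn1, Spp1 and Angpt1 are 8 of the 750 endogenous probes read in mouse bone marrow (BM) RNA, described here as genes of the marrow stromal niche. The set was chosen by name and on a readout of these same mice, since Cxcl12, Cxcl14 and Clu were higher 1 day after ruxolitinib. The day 1 ruxolitinib values are therefore given as a description with no test.

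The NanoString nCounter, which counts fluorescent barcodes hybridised to RNA without amplification, was used on 33 female C57BL/6 mice aged 6 to 8 weeks. Mice were given the BCL2 inhibitor venetoclax once daily or the JAK1/2 inhibitor ruxolitinib at 2 doses a day by oral gavage for 2 days, or the vehicle of that drug on the same schedule, and BM was taken on day 1, 3 or 7 after treatment. Each drug group held 3 mice, each vehicle group 2 mice, and 3 further mice were untreated, giving 13 groups. The vehicle of venetoclax was phosal, polyethylene glycol and ethanol, and that of ruxolitinib was DMSO and polyethylene glycol in water. Doses of 100 for venetoclax and 180 for ruxolitinib are stated in mg/ml in the deposited design text and in mg/kg in the methods. All mice were of the same wild-type strain, and their labels name no irradiation or transplant. Each sample was labelled as a separate mouse.

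Lanes were read in 3 runs of 11 lanes, each holding the mice of 1 day and 1 untreated mouse, so that day and run cannot be told apart. Endogenous counts summed to between 18056 and 466096 per lane, and 2 lanes, venetoclax day 1 replicate 1 and ruxolitinib day 3 replicate 1, lay under 30000. Values below are normalised counts, meaning counts scaled by 11 housekeeping probes, and a count was called above background when it exceeded the mean plus 2 SD of the 8 negative control probes of its lane. Levels are compared between mice for 1 gene and not between genes, because probes differ in efficiency.

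Blood stem cells and developing B cells live in the marrow beside stromal cells that secrete CXCL12, a chemokine which holds CXCR4-bearing cells in place. The same stromal and vascular cells display adhesion molecules such as VCAM1, lay down matrix such as fibronectin and type III collagen, and release factors such as ANGPT1 that act on stem and endothelial cells. Several of these genes are not limited to stroma, since macrophages also make VCAM1, fibronectin and osteopontin, and megakaryocytes make ANGPT1. In BM RNA of mixed cells, a smaller number of cells of a type and less RNA per cell cannot be told apart.

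The label of the set was checked against the 3 tested stromal markers outside it. Col1a1, a collagen chain of osteoblasts and fibroblasts, was above background in 27 lanes, whereas Pdgfrb, a receptor of perivascular stroma, reached it in 3 lanes and Il7, a stromal B cell cytokine, in 2 lanes. Of the 3 markers, 1 was thus detected in most lanes, and the name of the set stands here for the 8 genes and not for a measured cell type. Within the set, Cxcl12, the defining chemokine of marrow reticular cells, and Fn1 were above background in 33 lanes, Vcam1 in 32, Clu in 28, Spp1 in 24, Angpt1 in 22, Cxcl14 in 21 and Col3a1 in 2. The raw count of Col3a1 never exceeded 6, so its values below are at or near background and no fold change is given for it. All 8 genes passed the filter on low counts, which asked for 2 lanes above background.

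Promoter sequences of Cxcl12 and Cxcl14 are shown because these are the chemokines on which the set was chosen and because ruxolitinib acts on JAK kinases, whose STAT targets bind the gamma-activated site (GAS). They are from RefSeq on the mouse build GRCm38.p6, and the promoter table used here held 4 of the 8 genes (Cxcl12, Cxcl14, Col3a1 and Spp1). The 250 bases before the Cxcl12 start lie at chr6:117168285-117168534 on the plus strand, and the part of the Cxcl14 window shown lies at chr13:56296714-56296742 on the minus strand, 191 to 163 bases before the start. Both are written 5′ to 3′, and capitals mark motif matches.
Cxcl12: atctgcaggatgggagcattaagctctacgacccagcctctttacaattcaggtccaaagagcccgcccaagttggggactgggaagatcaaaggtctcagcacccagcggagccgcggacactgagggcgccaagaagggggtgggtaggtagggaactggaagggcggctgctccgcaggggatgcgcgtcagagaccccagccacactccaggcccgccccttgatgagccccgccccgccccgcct
Cxcl14: TTCTGAGAAgtgtccacagGAAACAGAAA
Motifs were searched on both strands, GAS as TTCNNNGAA, the core of the interferon-stimulated response element (ISRE) as GAAANNGAAA, and the TATA box as TATAAA. The Cxcl12 window held none of them, and its GC content was 64.4% against a median of 52.4% over all promoters. The Cxcl14 window held 1 GAS match and 1 ISRE core match and had a GC content of 59.6%, and the 2 matches do not overlap. Spp1 had 1 window with an ISRE core match and a TATA box match and 1 window with none, and the Col3a1 window held a TATA box match. Of 32851 promoter windows of this length, 7.02% held a GAS match, 2.98% an ISRE core match and 12.4% a TATA box match. A match is a match of letters only, and binding was not measured.

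Cxcl12 values lay between 27.7 and 363 over the 33 mice. On day 1, the 3 ruxolitinib mice had 212, 212 and 171, and the 2 mice given its vehicle had 50.4 and 53.1. All 3 ruxolitinib mice therefore lay well above both vehicle mice, with a log2 fold change of 1.93 (SE 0.43), which is the difference on which the set was chosen. In the same comparison 27.6% of all 655 genes had all ruxolitinib mice above both vehicle mice and 16.3% had all below. Untreated mice had 38.4, 52.3 and 53.9, close to the day 1 ruxolitinib vehicle. Venetoclax mice of day 1 had 27.7, 76.6 and 57.3 against 30.2 and 45.4 in their vehicle, so these groups overlapped. The overlap rests on the mouse at 27.7, a raw count of 5 in the shallow lane of that group. The other 2 venetoclax mice lay above both vehicle mice.

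On day 3, Cxcl12 was 93.6, 129 and 181 after ruxolitinib and 57.6 and 98.1 after its vehicle. The lowest ruxolitinib mouse, which is also the shallow lane of that group, lay below the higher vehicle mouse. Venetoclax mice of day 3 had 62.7, 39.1 and 52.6, within the range of 38.1 and 81.0 in their vehicle. On day 7, ruxolitinib mice had 73.8, 101 and 363 and vehicle mice 109.6 and 98.4. The third ruxolitinib mouse of day 7 stood apart, and the other 2 were near or below the vehicle mice. Venetoclax mice of day 7 had 73.0, 54.5 and 110.2 against 46.9 and 53.4, and all 3 lay above both vehicle mice. The same held for 6.56% of all genes.

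Ordered by group mean, Cxcl12 was highest in the ruxolitinib groups, at 198 ± 23.6 on day 1 (SD, n = 3), 179 ± 160 on day 7 (SD, n = 3) and 134 ± 44.01 on day 3 (SD, n = 3). The ruxolitinib vehicle of day 7 came next at 104 ± 7.93 (SD, n = 2), and the lowest groups were untreated mice at 48.2 ± 8.53 (SD, n = 3) and the venetoclax vehicle of day 1 at 37.8 ± 10.7 (SD, n = 2). The day 7 ruxolitinib mean rests on the third mouse, without which it was 87.4 ± 19.2 (SD, n = 2), below the mean of its vehicle mice. Each of the 12 pairs of neighbouring groups in this order overlapped in range, so no single step of it exceeded the spread between mice.

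**Figure D1:**
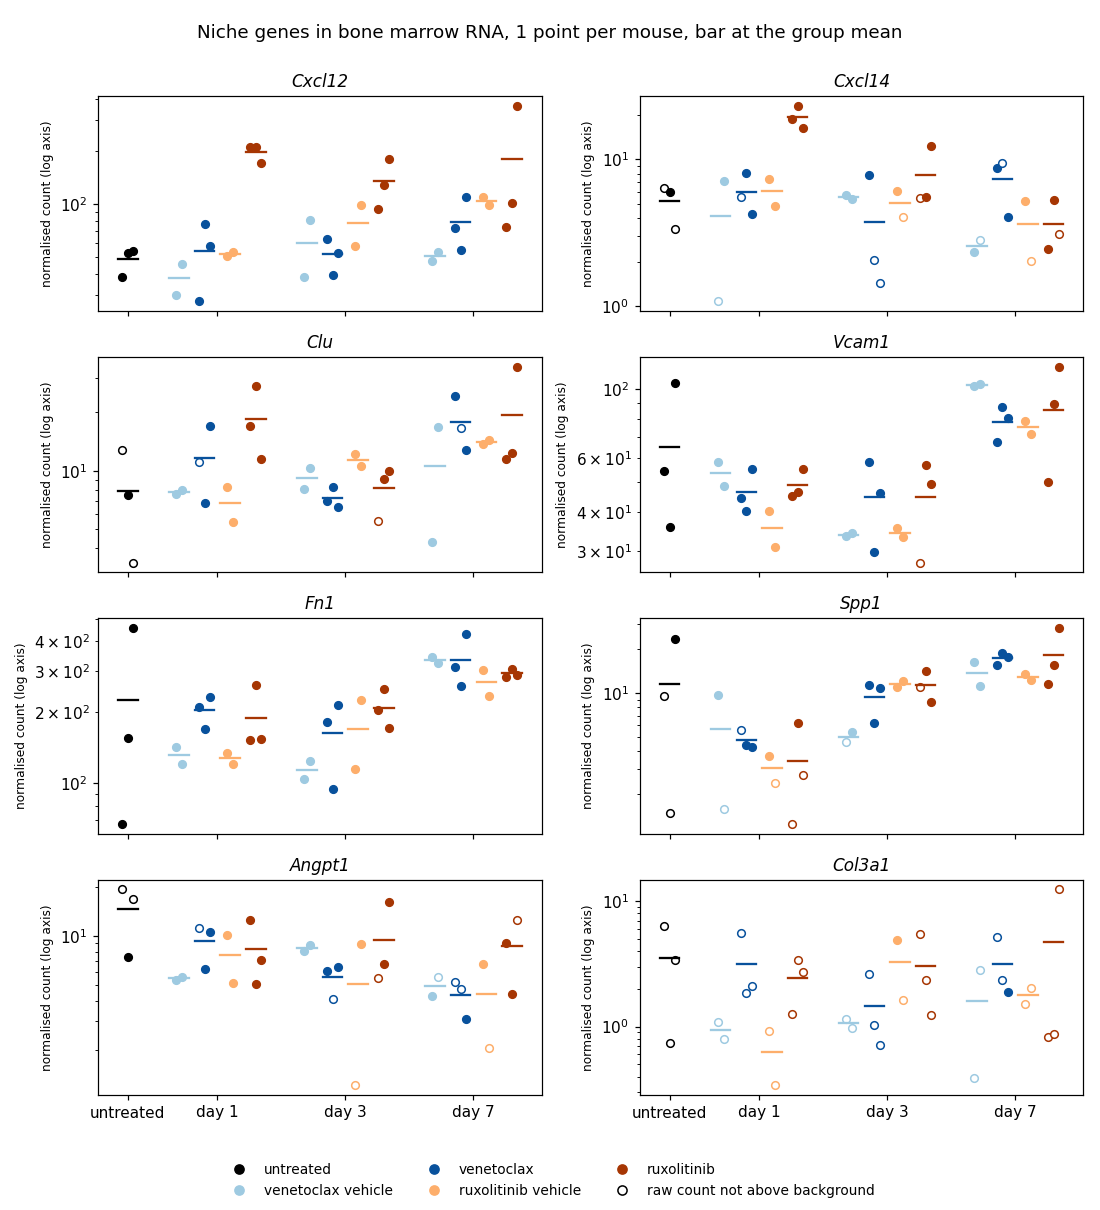
Normalised counts (log axis) of the 8 genes in each of 33 mice by group and day, with a bar at the group mean and open points for raw counts not above background. Cxcl12 and Cxcl14 of the day 1 ruxolitinib mice sit above both vehicle mice, the single day 7 ruxolitinib mouse at 363 stands apart for Cxcl12, and nearly all Col3a1 points are open.

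Cxcl14, a chemokine of epithelia and stroma, had low counts in most mice and higher ones in the day 1 ruxolitinib mice. These had 18.8, 23.2 and 16.4, against 7.33 and 4.79 in the vehicle mice, a log2 fold change of 1.77 (SE 0.44). In the other 30 mice Cxcl14 stayed between 1.08 and 12.4, and the highest of these was a ruxolitinib mouse of day 3. The day 3 ruxolitinib mice had 5.50, 5.54 and 12.4 and their vehicle mice 6.12 and 4.05, so the groups overlapped. By day 7 the ruxolitinib group mean was 3.62 ± 1.48 (SD, n = 3) and the vehicle mean 3.62 ± 2.22 (SD, n = 2), with 2 of 3 and 1 of 2 lanes above background.

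Clu encodes clusterin, a secreted chaperone found in platelets and many tissues. On day 1, Clu was 16.9, 27.1 and 11.5 after ruxolitinib and 8.24 and 5.48 in the vehicle mice. The log2 fold change of 1.52 (SE 0.43) was the smallest change of the 3 genes that defined the choice. On day 3 the ruxolitinib mice had 5.50 (not above background), 9.10 and 9.92, all below the vehicle mice at 12.2 and 10.5. The same order was seen in 7.94% of all genes. On day 7 they had 11.5, 12.3 and 34.2 against 13.7 and 14.3, and the mouse with the highest Clu was again the third.

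Of the other genes apart from Col3a1, the day 1 log2 fold change was 0.57 (SE 0.40) for Fn1 and 0.49 (SE 0.32) for Vcam1. Spp1 at 0.30 (SE 0.69) and Angpt1 at 0.25 (SE 0.49) were smaller than their errors. Against the untreated mice in place of the vehicle mice, the values were 2.01 for Cxcl12, 1.78 for Cxcl14 and 1.25 for Clu, and -0.25 for Vcam1, -0.21 for Fn1, -0.98 for Spp1 and -0.52 for Angpt1. These use the same ruxolitinib mice as the choice, so that the contrast between the 3 chosen genes and the others gives no support to the choice.

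The adhesion and matrix genes of the day 1 ruxolitinib mice were closer to vehicle. Vcam1 was 45.2, 46.4 and 55.2 after ruxolitinib and 40.3 and 30.8 after vehicle, while the venetoclax vehicle mice of that day had 58.3 and 48.6. All 3 ruxolitinib mice thus lay above both mice of their own vehicle but within the range of the 2 vehicles together. Fn1 was 152.5, 262 and 154 after ruxolitinib, against 135 and 121, and a single mouse was well above the others. All 3 were above their own vehicle mice, and also above the venetoclax vehicle mice of that day at 142 and 120.3. Of all genes, 27.6% had all ruxolitinib mice above both mice of their own vehicle on day 1. Spp1 was 1.25, 6.22 and 2.74 against 3.66 and 2.40, and Angpt1 was 12.6, 5.09 and 7.11 against 10.1 and 5.13. The Spp1 and Angpt1 groups overlapped, and 2 of the 3 Spp1 counts after ruxolitinib were not above background.

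Marker lists of other cells were summed in the same day 1 mice. Of single genes, 27.6% of all 655 had all ruxolitinib mice above both vehicle mice in this comparison and 16.3% had all below. The 5 megakaryocyte and platelet genes on the panel summed to 329 to 524 after ruxolitinib and to 233 and 303 after vehicle, with no overlap. Endothelial genes summed to 137.3 to 154 against 132 and 136, also with no overlap. The stromal genes outside the set, Pdgfrb, Col1a1 and Il7, summed to 16.3 to 62.8 against 16.8 and 20.2, with overlap. The 3 erythroid and dividing-cell genes summed to 402 to 499 against 563 and 626, lower without overlap. The 10 neutrophil genes summed to 79719 to 93546 against 97739 and 104434, a sum that is mostly S100a8, a calcium-binding protein of neutrophils with a median of 79548 over the 33 mice. Without S100a8 the other 9 neutrophil genes summed to 10099 to 13403 against 9427 and 9160, higher without overlap, and the median log2 fold change of the 10 genes was 0.48 beside 0.13 over all genes tested. Macrophage and monocyte genes summed to 612 to 769 against 643 and 696, B lineage genes to 689 to 785 against 684 and 699, and T and NK genes to 94.8 to 106 against 103 and 116, with overlap. The median log2 fold change of the 13 macrophage and monocyte genes was 0.46, and their sum is led by Ccr2 and Csf1r. The part of these cells in the Cxcl12, Cxcl14 and Clu values was not tested.

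Whether the set moved in mice that did not enter its choice was asked first for ruxolitinib on days 3 and 7. None of the 8 genes passed the edgeR quasi-likelihood test (Benjamini-Hochberg adjusted p under 0.05) on day 3, where 0.153% of all 655 genes were called, and none had an unadjusted p under 0.05. The Cxcl12 difference on day 3 was 0.83 (log2, SE 0.43, edgeR adjusted p = 0.997), with 0 genes of the set having all ruxolitinib mice above both vehicle mice (7.63% of all genes) and Clu lying below (7.94% of all genes). On day 7 the count was again 0 of 8, beside 0.153% of all genes, and Cxcl12 differed by 0.60 (log2, SE 0.42, edgeR adjusted p = 0.999). That value rests on the third mouse, since without it the difference was -0.26 and turned direction. With the untreated mice as control, Cxcl12 was called on day 7 (edgeR adjusted p = 0.013), beside 87 of all 655 genes. Only 1 of these untreated mice, at 53.9 for Cxcl12, was read in the day 7 run, so drug and run are not separated there. Apart from Cxcl12 and Col3a1, the differences from the drug's own vehicle ranged from -0.31 to 0.72 on day 3 and from -0.21 to 0.28 on day 7. By DESeq2 and limma, 0 of the 8 genes were called on either day.

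For the mean of days 3 and 7, Cxcl12 differed by 0.71 (log2, SE 0.30, edgeR adjusted p = 0.545), and 0 of 8 genes passed beside 0.153% of all genes. This value depends on the control mice and on 1 ruxolitinib mouse. With both vehicles of each day pooled it was 1.07 (edgeR adjusted p = 0.0106), and with the untreated mice as control 1.598 (edgeR adjusted p = 0.0142), where 17 and 32 of all 655 genes were called. Without the third ruxolitinib mouse of day 7 these became 0.65 (edgeR adjusted p = 0.0789) and 1.17 (edgeR adjusted p = 0.0161), and 0.28 (edgeR adjusted p = 0.995) against the drug's own vehicle. The untreated mice were read 1 in each run, so the comparison with them does not separate drug from run. The ruxolitinib vehicle mice had more Cxcl12 than the venetoclax vehicle mice on days 3 and 7 by 0.72 (log2, SE 0.34, edgeR adjusted p = 1.0), which did not pass the test, nor did any of the 8 genes or of all genes (0.0%).

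The third ruxolitinib mouse of day 7 ranked highest of the 33 mice for Cxcl12, Clu, Vcam1 and Spp1. Its values were 363 for Cxcl12, 34.2 for Clu, 118 for Vcam1 and 27.96 for Spp1, while Cxcl14 at 3.11 ranked 26. Its Col3a1, Cxcl14 and Angpt1 counts were not above background. It also had the highest sums of its group for megakaryocyte genes, at 733 beside 330 and 420, for endothelial genes, at 258 beside 146 and 154, and for macrophage genes, at 1081 beside 871 and 927. Its sums of neutrophil genes, at 86884 beside 67870 and 59941, and of T and NK genes, at 143 beside 105 and 88.1, were the highest too, as were those of the partner, ligand and matrix lists described below. Its sum of erythroid and dividing-cell genes, at 460 beside 621 and 728, was the lowest, and its B lineage and stromal sums lay between those of the other 2 mice. Its endogenous total was 48756. The part of these cells and of depth in its values was not tested.

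Venetoclax was compared with its vehicle on each day. None of the 8 genes passed the edgeR test on day 1 (0.153% of all genes called), day 3 (0.0%), day 7 (0.153%) or in the mean of the 3 days (2.9%), and DESeq2 and limma also called 0 of the 8 in each. Cxcl12 differed by 0.68 (log2, SE 0.48) on day 1, by -0.26 (SE 0.43) on day 3 and by 0.78 (SE 0.46) on day 7, with edgeR adjusted p-values of 0.718, 0.887 and 0.999. The day 3 direction was set by 1 vehicle mouse, replicate 2, without which the value was 0.44. Over the 3 days Cxcl12 differed by 0.40 (log2, SE 0.27, edgeR adjusted p = 0.725).

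The largest venetoclax difference relative to its error was that of Clu on day 7, at 1.32 (log2, SE 0.52, edgeR adjusted p = 0.730, unadjusted p = 0.0156). Venetoclax mice had 24.3, 16.6 and 12.8 and vehicle mice 4.30 and 16.9, so that the groups overlapped and the low vehicle mouse made the difference. Without that mouse, replicate 1, the value was -0.07. Of the other genes, Cxcl14 on day 7 was 8.69, 9.48 and 4.06 after venetoclax and 2.34 and 2.81 after vehicle, with no overlap between the groups and no pass of the test. Only 2 of these 3 venetoclax counts and 1 of the 2 vehicle counts were above background. Of all genes, 6.56% had all venetoclax mice above both vehicle mice on day 7.

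Some groups did not overlap in the matrix, adhesion and vascular genes after venetoclax, although no gene of the set passed the test. Over all 655 genes, all venetoclax mice lay above both vehicle mice in 11.8% and below them in 15.7% on day 1, in 13% and 13.1% on day 3, and in 6.56% and 10.7% on day 7. Fn1 was 211, 169 and 233 on day 1 against 142 and 120.3 in vehicle mice, without overlap, and on day 3 it was 182, 94.7 and 215 against 104 and 125, with overlap. Vcam1 was 67.8, 87.7 and 80.6 on day 7, and both vehicle mice were higher at 102 and 104. On day 3 Vcam1 after venetoclax was 58.3, 29.9 and 46.1, on both sides of its vehicle mice at 33.4 and 34.4.

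Spp1 was 11.3, 6.18 and 10.8 on day 3 of venetoclax and 4.61 and 5.40 in vehicle mice, so all 3 venetoclax mice were higher. On day 7 it was 15.6, 19.0 and 17.8 against 16.4 and 11.2, and the groups overlapped. Angpt1 was 11.1, 6.23 and 10.6 on day 1 against 5.40 and 5.58, and 6.09, 4.12 and 6.48 on day 3 against 8.07 and 8.84. The Angpt1 groups did not overlap on either day and lay in opposite order, with 2 of the 3 venetoclax counts above background each day. The venetoclax count not above it was the highest value on day 1, 11.1 from a raw count of 2 in the shallow lane. On day 3 it was the lowest value, 4.12.

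**Figure D2:**
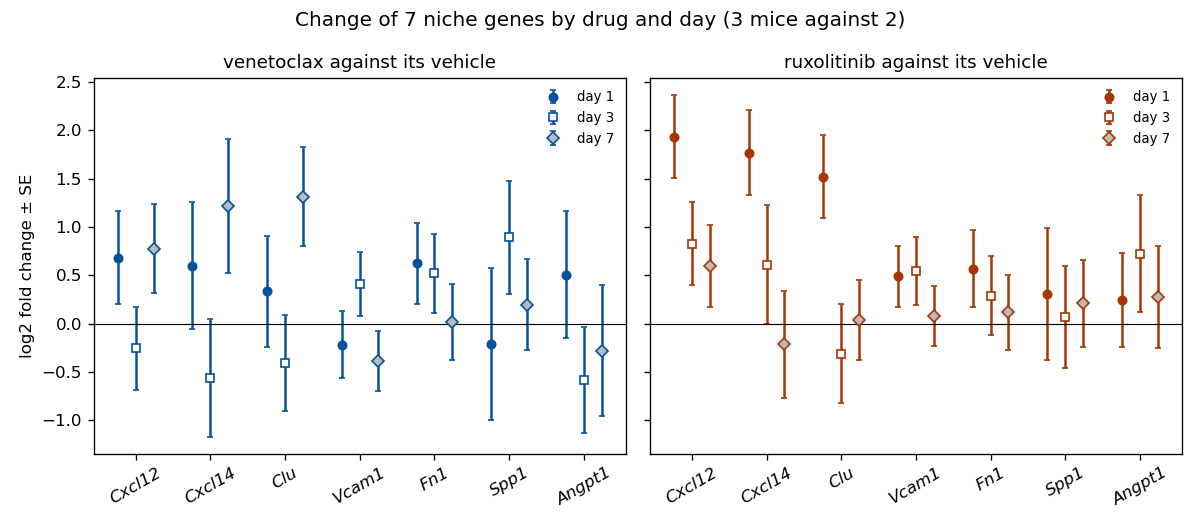
Log2 fold change (± SE) of 7 genes for venetoclax and ruxolitinib against their own vehicle on days 1, 3 and 7, 3 mice against 2 each, with Col3a1 left out as it was at background. The day 1 ruxolitinib points of Cxcl12, Cxcl14 and Clu, which chose the set, lie at 1.93, 1.77 and 1.52, and no venetoclax point or later ruxolitinib point passed the test.

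The change after venetoclax was also set against the change after ruxolitinib on the days that did not enter the choice. For Cxcl12 the venetoclax change minus the ruxolitinib change was -1.08 (log2, SE 0.61, edgeR adjusted p = 0.999) on day 3 and 0.18 (SE 0.62, edgeR adjusted p = 0.998) on day 7. The day 7 direction turned with both vehicles pooled (-0.92), without venetoclax replicate 3 (-0.20) and without ruxolitinib replicate 1 (-0.24) or 2 (-0.14). None of the 8 genes passed on either day, beside 0.153% and 0.305% of all genes. Day 1 was left out of this test because its ruxolitinib mice chose the set, and the Cxcl12 changes there were 0.68 for venetoclax and 1.93 for ruxolitinib.

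Gavage together with a vehicle was compared with no treatment over 5 vehicle groups, leaving out the ruxolitinib vehicle of day 1. None of the 8 genes passed the edgeR test, beside 0.0% of all genes, although 79 of the 655 genes and 1 of the 8 had an unadjusted p under 0.05. Angpt1, a ligand of the receptor TEK, differed by -0.98 (log2, SE 0.47, edgeR adjusted p = 0.384). Untreated mice had 19.2, 7.47 and 16.9 for Angpt1, but only the second of these was above background. Cxcl12 differed by 0.35 (log2, SE 0.37, edgeR adjusted p = 0.798).

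Vcam1, the ligand of the integrin VLA-4, Fn1, the gene of fibronectin, and Spp1, the gene of osteopontin, followed another pattern, which was noticed in the values and then compared. In mice of the 4 drug and vehicle groups, Vcam1 ranged from 27.5 to 58.3 on day 3 (median 34.9, n = 10) and from 50.0 to 118 on day 7 (median 84.2, n = 10). Fn1 ranged from 94.7 to 250.5 (median 177) on day 3 and from 234 to 430.3 (median 305) on day 7. Spp1 ranged from 4.61 to 14.2 (median 10.9) on day 3 and from 11.2 to 27.96 (median 15.6) on day 7. The day 7 mice were thus mostly above the day 3 mice in vehicle as in drug groups, with some overlap for all 3 genes.

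Over these groups the day 7 minus day 3 difference was 1.06 for Vcam1 (log2, SE 0.16, edgeR adjusted p = 6.93e-06), 0.93 for Fn1 (SE 0.20, edgeR adjusted p = 0.000355) and 0.72 for Spp1 (SE 0.25, edgeR adjusted p = 0.0223). These 3 of 8 genes passed, and so did 37.6% of all 655 genes, so the share in the set is that of the panel as a whole. Cxcl12 at 0.24 (log2, SE 0.22, edgeR adjusted p = 0.441), Clu at 0.38 (SE 0.24), Cxcl14 at -0.39 (SE 0.31) and Angpt1 at -0.48 (SE 0.30) did not pass.

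The single untreated mouse of the day 7 run was likewise higher than that of the day 3 run for all 3 genes. For the runs of days 1, 3 and 7 it had 54.4, 35.9 and 104 for Vcam1, 67.2, 155 and 455.1 for Fn1, and 9.60, 1.49 and 23.6 for Spp1. The Spp1 counts of the first 2 of these mice were not above background. Relative to the untreated mouse of the same run, a single mouse each, the day 7 minus day 3 difference was -0.49 for Vcam1 and -0.62 for Fn1, and none of the 8 genes passed. By the design, time after treatment and run cannot be told apart for these genes. The call of Spp1 was also lost by DESeq2 (adjusted p = 0.0667), by limma (adjusted p = 0.0901) and by limma after background subtraction (adjusted p = 0.176), with the lanes scaled by all 20 housekeeping probes (edgeR adjusted p = 0.0658) and without any 1 of 3 vehicle mice, the venetoclax vehicle replicate 2 of day 3 (edgeR adjusted p = 0.0502), the venetoclax vehicle replicate 1 of day 7 (edgeR adjusted p = 0.204) or the ruxolitinib vehicle replicate 1 of day 7 (edgeR adjusted p = 0.103).

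**Figure D3:**
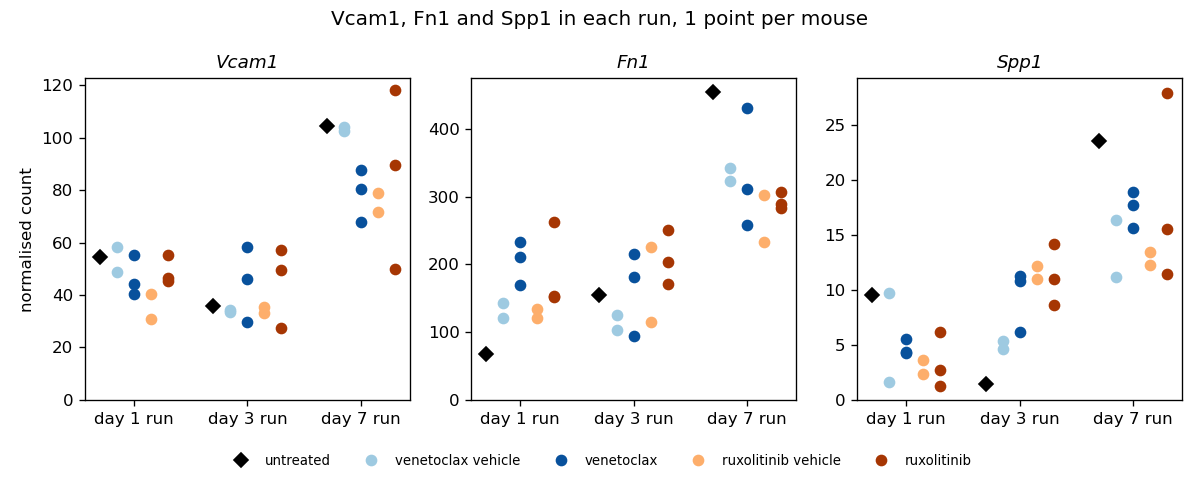
Normalised counts of Vcam1, Fn1 and Spp1 in each mouse by run, where each run holds the mice of 1 day and 1 untreated mouse (diamond). The untreated mouse of the day 7 run, at 104 for Vcam1, 455.1 for Fn1 and 23.6 for Spp1, is above that of the other runs, and most treated mice of that run are above those of the other runs.

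Macrophage markers were compared over the same 2 days. The 13 macrophage and monocyte genes summed to 551 to 889 over the day 3 mice and to 836 to 1081 over the day 7 mice, and 7 of the 13 were called higher on day 7, among them Cd68, Csf1r and Mrc1. Of all 655 genes, 23.1% were called higher and 14.5% lower on day 7. A like share of the neutrophil list moved too, with 6 of its 10 genes called higher and 3 lower. Run and day cannot be told apart for these lists. The part of macrophages in the Vcam1, Fn1 and Spp1 values was not tested.

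Partners of the 8 gene products on the panel were Cxcr4, the receptor of CXCL12, Dpp4, a protease that cleaves it, the integrin chains Itga4, Itgb1, Itga5 and Itgb3, the osteopontin receptor Cd44, the angiopoietin receptor Tek, and Lrp1. In the day 1 ruxolitinib mice Cxcr4 was 219.7, 245 and 219, against 218 and 191 in vehicle mice, a log2 fold change of 0.16 (SE 0.25). Dpp4 was 74.1, 54.3 and 61.3 after ruxolitinib on day 1 and 109.9 and 105 after vehicle, so that all 3 ruxolitinib mice were lower (log2 -0.77, SE 0.28), as were those of 16.3% of all genes. None of the 9 partners passed the edgeR test in any of the drug comparisons on days 3 and 7, or for venetoclax on day 1. The nearest was Dpp4 on day 3 of ruxolitinib, with 38.5, 43.9 and 42.2 against 116 and 82.7 in vehicle mice, a difference of -1.21 (log2, SE 0.31, edgeR adjusted p = 0.0643). The lowest of these, in the shallow lane, was not above background. Cd44 was above background in only 5 lanes and Tek in 3, so the test says little about these 2 receptors.

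Between days 7 and 3, 4 of the 9 partners passed, 2 in each direction, beside 37.6% of all genes. Cxcr4 was higher on day 7 by 0.43 (log2, SE 0.13, edgeR adjusted p = 0.00664) and Itga4, the VCAM1-binding chain of VLA-4, by 0.56 (SE 0.16, edgeR adjusted p = 0.00569). Dpp4 fell by 0.70 (SE 0.15, edgeR adjusted p = 0.00043) and Itgb3 fell by 1.04 (SE 0.15, edgeR adjusted p = 4.58e-06). Run and day cannot be told apart here either.

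Other genes of the niche were counted from fixed lists. Of 15 tested niche ligands and cytokines, none passed in any drug comparison outside day 1 of ruxolitinib, and between days 7 and 3 Tgfb1 was higher while Csf1, Csf3 and Flt3l were lower. Of 26 tested matrix, adhesion and surface genes, Bst2, an interferon-induced membrane protein, fell by 0.51 (log2, SE 0.14, edgeR adjusted p = 0.032) in the mean of the venetoclax days and was the only gene of the list to pass in those drug comparisons. Of all genes, 2.9% passed in that mean. Some tested genes of these lists were rarely above background, which limits these counts. Among the ligands and cytokines, Il7, Angpt2 and Tgfb3 were above it in 2 lanes each. Il6 was in 5, Ccl2 and Cxcl16 in 6, Lif in 7 and Tnfsf11 in 11. Among the matrix and surface genes, C1s1 was above it in 2 lanes, Pdgfrb and Cfd in 3 and Mfge8 in 6. Between days 7 and 3, 5 of the 26 genes were higher and 2 lower, beside 23.1% and 14.5% of all genes. In the day 1 ruxolitinib comparison the median log2 fold changes were 0.16 for the partners, 0.27 for the ligands and cytokines and 0.28 for the matrix and surface genes, beside 0.13 over all genes tested.

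The genes outside the set most like Cxcl12 were sought among 508 genes above background in at least 17 lanes, by Pearson r over the 13 group means, which include the day 1 ruxolitinib mice. They were Ppbp, a platelet chemokine (r = 0.76), Irak1, a kinase of interleukin-1 signalling (0.74), Slc11a1, a phagosomal metal transporter (0.71), Map2k1, a MAP kinase kinase (0.71), and Cebpb, a myeloid transcription factor (0.67), beside a median of 0.09 over all genes compared. With group means removed, r over the 33 mice was 0.34, 0.55, -0.12, 0.20 and 0.41 in the same order, beside a median of 0.11. Within the set, r over the group means was 0.70 for Clu and 0.57 for Cxcl14, values that the choice of these genes on day 1 helps to set. It was 0.38 for Fn1, 0.21 for Spp1, 0.13 for Vcam1 and -0.01 for Angpt1. With group means removed it was 0.28, 0.13, 0.25, 0.10, 0.41 and 0.27 in the same order. Rank correlations with group means removed were 0.21, 0.12, 0.32, 0.04, 0.25 and 0.26, so that the highest gene differed by measure. These values include the third ruxolitinib mouse of day 7, the highest of the 33 mice for Cxcl12, Clu, Vcam1 and Spp1. The mice of a day share a run.

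The biological coefficient of variation in the edgeR model was 31.8% for Cxcl12, 24.2% for Cxcl14, 23.5% for Clu, 21.1% for Vcam1, 30.3% for Fn1, 26.6% for Spp1 and 28.9% for Angpt1, against a median of 18.9% over all genes. Each of these lies above that median, and each comparison of a drug with its own vehicle on a single day held 3 against 2 mice.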

How the data were processed

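BM RNA of 33 mice was hybridised to 1 NanoString lane per mouse. The panel is named as an immunology panel in the design text and as the PanCancer Immune Profiling Panel in the methods. The authors deposited raw barcode counts of 750 endogenous, 20 housekeeping, 6 positive and 8 negative probes per lane, without normalisation; their own nCounter Advanced Analysis normalisation is not in these counts. The header of the day 3 run reads Day 2, and the label, day 3, was used.

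The scaling factor of a lane was the geometric mean over 11 housekeeping probes, those above background in all lanes, background being the mean plus 2 SD of the negative probes. A gene was tested when above background in at least 2 lanes (655 genes). Counts were fitted with edgeR 4.0.16 in R 4.3.3 (quasi-likelihood test, 13 group means in 1 model, 20 residual degrees of freedom), with Benjamini-Hochberg adjustment over the 655 genes at 0.05. Lane totals of 18056 to 466096 limit low genes by counting error. Alternatives used DESeq2 1.42.0, limma 3.58.1, other scalings, filters, controls and blocks, and left out each mouse.

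The genes and lists were chosen with earlier results of these data known, and the comparison of day 7 with day 3 was added after its values were seen, as were the alternatives that leave out ruxolitinib day 7 replicate 3 under another control. In tested comparisons a fold change is printed for Cxcl12 and for genes with an adjusted p under 0.05 or a difference of at least 2 SE, and in the added comparison of days 7 and 3 for the other genes of the set too, apart from Col3a1, as in the closing section for Clu and Angpt1 on days 1 and 3. Other genes that are named were named for their values, or as partners of a gene. The 5 genes outside the set most like Cxcl12 were taken by Pearson r. Other marker lists (neutrophil, B, T and NK, erythroid) are given in the closing section.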

Additional observations from a re-analysis of the deposited data

Results flagged for a closer look

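Clu after ruxolitinib lay above both vehicle mice in all 3 mice of day 1 and below both in all 3 mice of day 3, and the difference between the 2 changes was 1.91 as a log2 ratio of the group means of normalised counts (the edgeR changes were 1.52 and -0.31). Angpt1 after venetoclax lay above both vehicle mice in all 3 mice of day 1 and below both in all 3 mice of day 3, and that difference was 1.37 on the same scale (the edgeR changes were 0.51 and -0.59). Of these Angpt1 counts after venetoclax, 2 of 3 were above background on each day. The day 1 count that was not, a raw count of 2 in the shallow lane, gave the highest value of that group. For ruxolitinib, 27.6% of all 655 genes lay above in all 3 mice on day 1 and 7.94% below on day 3. For venetoclax these shares were 11.8% and 13.1%. Neither difference between days was tested, the day 1 change of Clu was among those that chose the set, and days 1 and 3 were read in different runs.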

How the results depend on the processing

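Of 544 alternative values of 25 fold changes, 514 kept their direction and side of the threshold or stayed within 1 SD, and of 265 alternative counts of called genes of the set, 253 were equal to the main count and 260 within 1.5 times of it, with 2 to 4 genes for day 7 minus day 3 apart from the run block. The 25 fold changes include the day 1 ruxolitinib values that chose the set, and that of Col3a1 at background. The tally is therefore a description and gives no support to the day 1 values. Low counts limit Col3a1, which was at background, and Cxcl14, Angpt1 and Spp1, which were not above it in many lanes. The cause of the changes below was not tested.

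With the untreated mice as control, the day 1 ruxolitinib median over the 8 genes was -0.033 in place of 1.05 (-0.21 in place of 0.57 over the 7 genes without Col3a1), with Cxcl12, Cxcl14 and Clu still at 2.01, 1.78 and 1.25, Cxcl12 on day 3 of venetoclax was 0.073, and the count of called genes of the set was 1 for ruxolitinib on day 7 (Cxcl12, 1.69, edgeR adjusted p = 0.013), beside 87 of 655 genes, and 1 for the mean of days 3 and 7 (1.598), beside 32. The latter count was 1 with pooled vehicles (1.07), beside 17, and 1 with the untreated control and without ruxolitinib day 7 replicate 3 (1.17), beside 28. Pooled vehicles turned the Cxcl12 difference between the drugs on day 7 to -0.92. The untreated mice were read 1 in each run, so the comparisons with them cross runs. With the run as a block, the day 7 minus day 3 count was 0, with Vcam1 at -0.49, Fn1 at -0.62 and Spp1 at -3.18, the last against an untreated mouse of day 3 with a raw count of 2, not above background. Spp1 lost its call by DESeq2 (adjusted p = 0.0667), by limma (0.0901) and by limma after background subtraction (0.176).

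Leaving out 1 mouse gave Cxcl12 values from -0.65 to 0.44 for venetoclax on day 3, from -0.26 to 1.02 for ruxolitinib on day 7 and from -0.24 to 1.04 for venetoclax minus ruxolitinib on day 7, which turned without venetoclax replicate 3 or ruxolitinib replicate 1 or 2. It gave Clu values from -0.069 to 1.88 for venetoclax on day 7, Spp1 values from 0.61 to 0.83 for day 7 minus day 3, and Spp1 values from -0.43 to 0.66 for ruxolitinib on day 1, with the lowest without ruxolitinib replicate 2. Angpt1 values for ruxolitinib on day 1 ranged from -0.30 to 0.66.

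Replicate numbers do not pair the mice, which are different animals: 4 of 12 drug and vehicle pairs had a correlation of deviations over 0.1 (range -0.349 to 0.303). With a replicate block, Cxcl12 differed by 0.43 in the mean of ruxolitinib days 3 and 7 (edgeR adjusted p = 0.967), the block called 0 of the 8 genes in each of the 11 planned tests and 3 in the added one, and it lowered the venetoclax mean count over all genes from 19 to 11.

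Counts over all genes were less stable. Over the alternatives the count ranged from 6 to 26 around 19 for the venetoclax mean, from 0 to 87 around 1 for ruxolitinib on day 7, from 0 to 66 around 1 for venetoclax on day 7, from 0 to 25 around 1 for venetoclax on day 1, from 0 to 10 around 1 for ruxolitinib on day 3, from 0 to 32 around 1 for the ruxolitinib mean and from 0 to 261 around 246 for day 7 minus day 3. Scaling by the total endogenous count shifted the median of all genes by 0.23 for day 7 minus day 3 and by 0.12 for ruxolitinib on day 1.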

Other observations

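Among the other marker lists, 6 of 10 neutrophil genes were called higher and 3 lower on day 7 than on day 3, 3 of 8 B lineage genes higher and 3 lower, and 1 of 10 T and NK genes, Cd3g, higher. Of 3 erythroid and dividing-cell genes, 1 was higher and 1 lower. Of all genes, 37.6% were called in that comparison, 23.1% higher and 14.5% lower. In the drug comparisons outside day 1 of ruxolitinib, the B lineage gene Igll1 was called lower after ruxolitinib on day 3 and after venetoclax on day 7. Of all genes, 0.153% were called in each of these. In the venetoclax change minus the ruxolitinib change, Igll1 was called higher on day 3 (0.153% of all genes called) and lower on day 7 (0.305%). Cd22, Cd3d and Cd8a were called lower in the mean of the venetoclax days (2.9%). B lineage genes summed to 311 to 424 in the day 3 ruxolitinib mice and to 690 and 727 in their vehicle mice. These lists include no gene of the set, and each day was its own run.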
